A study of Mus musculus with 2 samples.

Results

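The genes described here encode the constitutive proteasome, in M1-like bone marrow-derived macrophages (BMDMs) of FRβ KO and WT mice. They are the protein-coding genes of the GENCODE M21 mouse annotation whose symbols start with *Psma*, *Psmb*, *Psmc*, *Psmd*, *Psme*, *Psmf* or *Psmg*, without the inducible catalytic subunits *Psmb8*, *Psmb9* and *Psmb10*. This rule found 47 genes among the 54532 in the table. They comprise 8 genes of the α ring and 8 of the β ring of the 20S core, 6 ATPases and 11 other subunits of the 19S cap, 6 activators or inhibitors and 7 assembly chaperones. The remaining gene, *Psmc3ip*, meets the rule by its symbol alone and encodes a meiotic recombination protein.

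The FRβ KO library came from male C57BL/6 mice lacking functional folate receptor β, the product of *Folr2*. The allele was made by insertional mutagenesis on the SWV background and crossed onto C57BL/6, so sequence around *Folr2* may still derive from SWV. The WT library came from male C57BL/6 mice with intact *Folr2*. For both, marrow cells of the tibia and femur were cultured, by the sample labels, in regular RPMI medium with M-CSF (20 ng/mL, 7 days). LPS at 1 ng/mL and IFNγ at 20 ng/mL were then applied for 24 hours to obtain M1-like cells. RNA was pooled over the mice of a genotype before sequencing, which gave 1 library each, so no value below has a replicate error and no p-value is given. The study's methods give an age at purchase for WT mice in general, and not the age of the mice of either genotype whose marrow was used here.

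The FRβ KO library held 19742619 counts and the WT library 18871271. *Folr2* (GRCm38 chromosome 7, 101839988 to 101857194) had 2 counts in FRβ KO and 0 in WT, too few to check the genotype labels in these polarized cells. All 7 macrophage markers and all 4 M1 markers were detected. The 23 markers of other cell types together had 496 counts in FRβ KO and 745 in WT, of which the neutrophil gene *S100a8* took 407 and 652. The markers of T cells summed to 0 and 1 counts in FRβ KO and WT. The part of these cells in the proteasome values was not tested. In a bulk sample, fewer cells of a type and less RNA per cell cannot be told apart.

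The proteasome is the barrel-shaped protease that degrades proteins tagged with ubiquitin. Its 20S core is built of outer α rings, which gate entry, and inner β rings, which hold the catalytic sites, while the 19S cap binds ubiquitin, removes it and threads the substrate into the core with its ring of ATPases. In macrophages exposed to IFNγ the inducible subunits of the immunoproteasome and the PA28 activator are produced, and the peptides cut by these particles feed presentation on MHC class I. When proteasomes are inhibited, the transcription factor NRF1, encoded by *Nfe2l1*, is known to raise the genes of the subunits together through antioxidant response elements in their promoters.

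Of the 47 symbols, 39 had an entry among the promoter sequences of RefSeq (GRCm38.p6), each covering bases before and after an annotated start. The 250 bases before the start were searched on both strands for TGACNNNGC, the core of the antioxidant response element, and for CCAAT, the CCAAT box. The first was present for 5 of the 39 genes (12.8%), against 11.5% of all 27025 genes with a promoter entry. The second was present for 14 (35.9%), against 37.5% of all genes. The windows around the first are shown because the element is the one through which these genes are known to be induced. The capitals mark the match, which may stand on either strand, and each run is read 5′ to 3′ on the strand of its gene.
*Psmb5*, chr14:54618014-54618062, minus strand: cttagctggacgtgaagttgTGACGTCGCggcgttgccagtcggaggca
*Psmb6*, chr11:70525328-70525356, plus strand: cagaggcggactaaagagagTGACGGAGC
*Psmc6*, chr14:45329577-45329625, plus strand: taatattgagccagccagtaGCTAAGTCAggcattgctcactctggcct
*Psmd9*, chr5:123228139-123228187, plus strand: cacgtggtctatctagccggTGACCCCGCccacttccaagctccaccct
*Psmd12*, chr11:107479278-107479309, plus strand: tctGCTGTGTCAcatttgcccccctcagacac

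The match began 9 bases before the start in *Psmb6*, 31 in *Psmd9* and 47 in *Psmb5*, and 227 in *Psmc6* and 247 in *Psmd12*. A match is a string of letters and does not show that a factor binds there. The KO/WT ratios of these 5 genes ran from 0.911 for *Psmb5* to 1.11 for *Psmc6*, with *Psmb6* at 0.941, *Psmd9* at 0.954 and *Psmd12* at 0.973.

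A second set of sequences bears on what the counts can tell apart. *Psme2* encodes the β subunit of PA28, and *Psme2b* is annotated as a separate coding gene with a single exon, whereas the *Psme2* transcript used here has 11. The transcripts aligned over 794 bases at 99.4% identity, and their shared coding part of 717 bases differed at 5 positions. The 90 coding bases below hold 3 of these differences, marked in capitals. The *Psme2* stretch crosses an intron.
*Psme2*, chr14:55588049-55588276, minus strand: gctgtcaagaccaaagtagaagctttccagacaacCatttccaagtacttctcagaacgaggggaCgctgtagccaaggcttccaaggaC
*Psme2b*, chr11:48945576-48945665, minus strand: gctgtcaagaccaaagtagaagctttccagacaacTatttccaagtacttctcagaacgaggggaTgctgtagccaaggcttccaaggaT

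The proteasome genes were at nearly the same level in both libraries. The KO/WT ratio of a gene's counts was taken on library sizes scaled by TMM, with an exact 95% interval that covers counting error only. Of the 47 genes, 46 reached 10 counts in total. The whole interval lay above 1 for 3 of them, where 14.7% of all 14489 genes with that many counts did so, and below 1 for 9, where 16.8% did so. It held 1 for the other 34. By the ratio alone, 20 were higher in FRβ KO and 26 lower.

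No interval lay wholly beyond 1.2-fold, where 2.71% of all genes were higher and 3.44% lower in FRβ KO. The same was true beyond 2-fold, where 0.311% of all genes were higher and 0.407% lower. Since 38 of the 47 genes had at least 1000 counts, they were also read against the 5846 genes of the table with that many. All 12 calls came from these 38. The 3 above 1 made 7.89% of them, against 21.3% of the abundant genes, and the 9 below 1 made 23.7%, against 23.8%. Beyond 1.2-fold the abundant genes had 1.52% higher and 2.31% lower.

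The median log2 ratio of the 46 genes was -0.015, with an interquartile range of 0.16, and that of all genes tested was -0.005 with a range of 0.33. Above the minimum of 1000 counts the median was -0.02 for the 38 and -0.001 for all, with interquartile ranges of 0.15 and 0.19. Together the 47 genes had 71672 counts in FRβ KO and 68162 in WT, or 3630 and 3612 CPM, the count as a share of the library total. The ratio of the sums was 0.980 (0.970 to 0.991) with TMM and turned to 1.01 (0.995 to 1.02) with scaling by total counts.

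**Figure D1:**
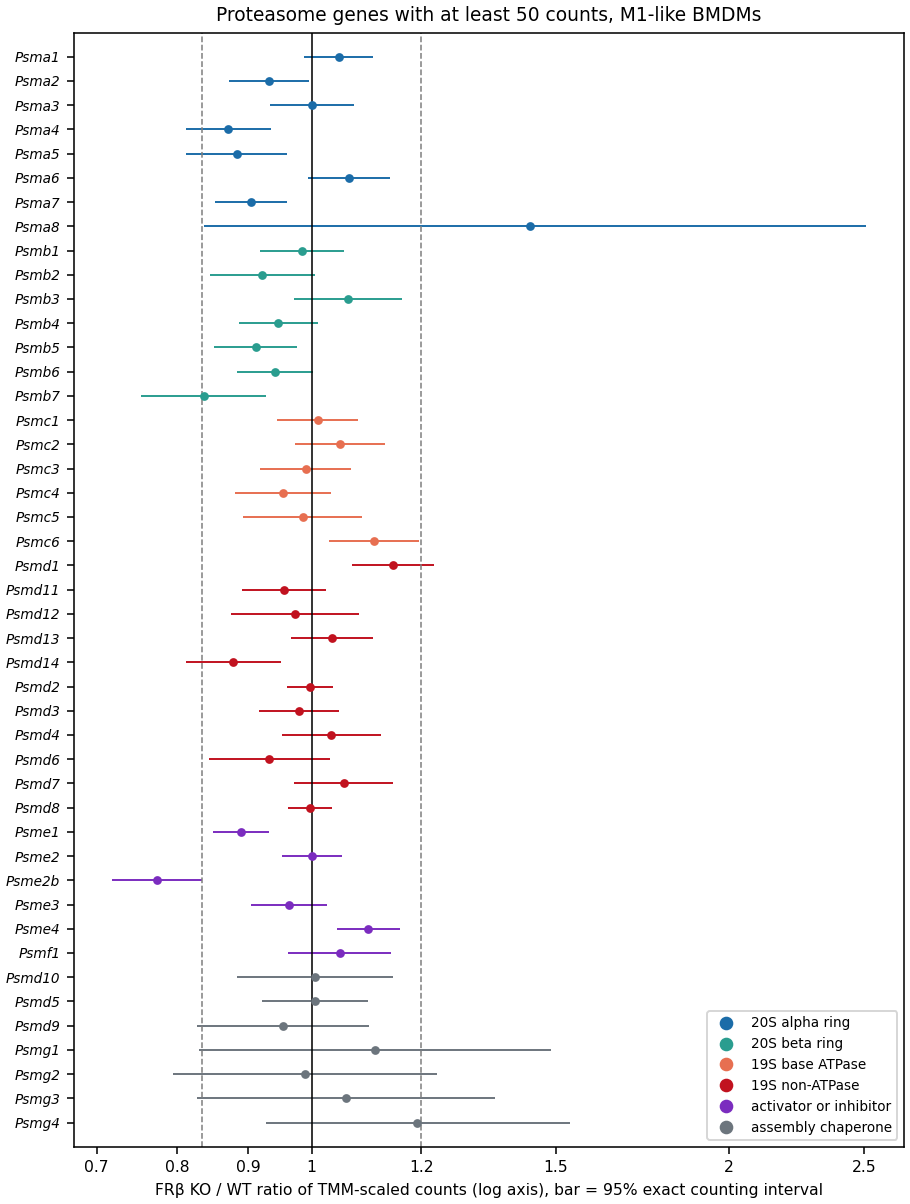
KO/WT ratio of TMM-scaled counts on a log axis for the 45 proteasome genes that reached 50 counts in total, grouped by colour into subunit classes. Points are ratios, bars are exact 95% counting intervals and dashed lines mark 1.2-fold, and most points lie between 0.9 and 1.2, with *Psme2b* lowest at 0.773 and the sparsely counted *Psma8* highest at 1.44.

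The α ring, through which substrates enter the core, held 4 genes with the whole interval below 1 and 0 above it. Of all genes with at least 1000 counts, 23.8% lay below 1 and 21.3% above, shares that apply to the later classes too. The ring has only 8 genes, and its count of calls was not tested. *Psma4* was the lowest of the ring, with 1504 counts in FRβ KO against 1610 in WT and a ratio of 0.871 (0.811 to 0.935). *Psma5* followed at 0.883, *Psma7* at 0.904 and *Psma2* at 0.932. The intervals of *Psma1* (1.05), *Psma3* (1.00) and *Psma6* (1.06) held 1. *Psma8*, which encodes a form of the α ring used in the testis, had 37 counts in FRβ KO and 24 in WT, a ratio of 1.44 with an interval of 0.837 to 2.51. Summed over the ring there were 12659 counts in FRβ KO and 12258 in WT, a ratio of 0.963 (0.939 to 0.987).

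The β ring carries the proteolytic sites, in *Psmb5* (chymotrypsin-like), *Psmb6* (caspase-like) and *Psmb7* (trypsin-like). *Psmb5* had 1647 counts in FRβ KO against 1685 in WT, a ratio of 0.911 (0.851 to 0.976). *Psmb6* had 1975 against 1956, a ratio of 0.941 whose interval (0.884 to 1.003) held 1. *Psmb7* had the lowest ratio of the ring, 694 counts in FRβ KO against 774 in WT and 0.836 (0.753 to 0.927). All 3 catalytic genes thus had ratios under 1, and 2 of them had intervals wholly below it. With scaling by total counts *Psmb7* alone had such an interval, and *Psmb5* stood at 0.934 (0.872 to 1.001).

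*Psmb7* shares 405 exonic bases with *Nek6* on the opposite strand, which had 1103 counts in FRβ KO and 1247 in WT. The sources used here do not state whether the counting used strand, so reads of that stretch cannot be told apart. Of the structural β genes, *Psmb1*, *Psmb2* and *Psmb4* had ratios of 0.984, 0.921 and 0.946, and *Psmb3* was the highest of the ring at 1.06 (0.972 to 1.16), with 1052 counts in FRβ KO and 923 in WT. All 4 intervals held 1. *Psmb11*, the β subunit of cortical thymic epithelium, had 0 counts in both libraries, where a count of 0 allows up to 3 counts, or 0.152 CPM in FRβ KO and 0.159 CPM in WT. The ring summed to 9930 counts in FRβ KO and 9796 in WT, a ratio of 0.945 (0.919 to 0.972).

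The 6 ATPases of the 19S base, which unfold substrates, summed to 8326 counts in FRβ KO and 7623 in WT, a ratio of 1.02 (0.987 to 1.05). *Psmc6* was the highest, with 1511 counts against 1270 and a ratio of 1.11 (1.03 to 1.196), and the only one whose interval excluded 1. *Psmc4* was the lowest, with 1236 counts in FRβ KO and 1208 in WT and a ratio of 0.954 (0.880 to 1.03). The other 4 lay between 0.986 and 1.05.

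The 11 non-ATPase subunits of the cap include scaffolds, ubiquitin receptors and the deubiquitinase that frees the substrate of its tag. Among the cap genes that meet the naming rule, the scaffold gene *Psmd1* had the highest ratio, 1.14 (1.07 to 1.22). It had 1904 counts in FRβ KO against 1551 in WT. The deubiquitinase gene *Psmd14* had the lowest ratio among them, with 1208 counts in FRβ KO against 1282 in WT and 0.878 (0.811 to 0.951). *Sem1*, a cap subunit outside the rule that is given with the partners below, was lower, at 0.796 (0.714 to 0.887). *Psmd2*, the other large scaffold, had 5536 and 5176 counts in FRβ KO and WT (0.997), and *Psmd8*, a lid subunit, 6030 and 5640 (0.997). The ubiquitin receptor *Psmd4* had a ratio of 1.03. Its interval held 1, as did those of the other 8 subunits that are neither *Psmd1* nor *Psmd14*. The class summed to 23872 counts in FRβ KO and 22245 in WT, a ratio of 1.00 (0.982 to 1.02).

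*Psmd1* overlaps *Htr2b* over 252 exonic bases on the opposite strand, and *Htr2b* had 83 counts in FRβ KO and 51 in WT. The part of reads from that stretch in the *Psmd1* counts was not tested. *Psmd13* overlaps *Sirt3* over 342 exonic bases and *Psmc3* overlaps *Slc39a13* over 215, each on the opposite strand, and both members had intervals that held 1.

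Set against each other within a library, the core and the cap need no scaling between libraries. The 16 genes of the core summed to 22589 counts in FRβ KO and 22054 in WT, and the 17 of the cap to 32198 and 29868. The cap sums leave out *Sem1* and *Adrm1*, cap subunit genes outside the naming rule. The core to cap ratio in FRβ KO was 0.9501 times that in WT (0.927 to 0.974, counting error only). Within the core, the β to α ratio changed by 0.982 (0.945 to 1.02), and within the cap the ratio of ATPases to other subunits by 1.02 (0.982 to 1.06), and both intervals held 1.

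The KO/WT ratio also varied with transcript length, and the part of length in the core to cap change was not tested. Over the 5773 protein-coding genes with at least 1000 counts, the median log2 KO/WT ratio was -0.12 for genes whose longest coding transcript had at most 1000 bases and 0.07 for those over 10000. The 38 abundant proteasome genes had a median length of 1586 bases, against 3473 for all abundant genes. Across these 38 the rank correlation of ratio and length was 0.443, a description over genes that share the same 2 libraries, and across all 5773 it was 0.227. The median length was 1174 bases for the genes of the core and 1819 for those of the cap.

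When each ratio was divided by the median of genes of like length, a step chosen after seeing the data, the median log2 ratio of the core was 0.001, in place of -0.09. That of the cap was 0.03, in place of -0.005. The sums behind the core to cap ratio were not divided this way. The number of proteasome genes with the whole interval above 1 became 8 in place of 3. The number wholly below 1 became 7 in place of 9. The share of all genes with such calls after the same division was not computed, so these counts cannot be read against it. *Psma2* and *Psmb5* no longer lay below 1, *Psmb5* at 0.989 (0.924 to 1.06), while *Psmb7* at 0.865 (0.780 to 0.960), *Psma4* at 0.901 (0.840 to 0.968), *Psmd14* at 0.901 (0.833 to 0.976) and *Psme1* at 0.921 (0.879 to 0.964) still did. GC content moved with the ratio too, over a smaller range, with a median of 0.04 in the lowest of 5 equal GC groups of abundant coding genes and -0.03 in the highest.

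**Figure D2:**
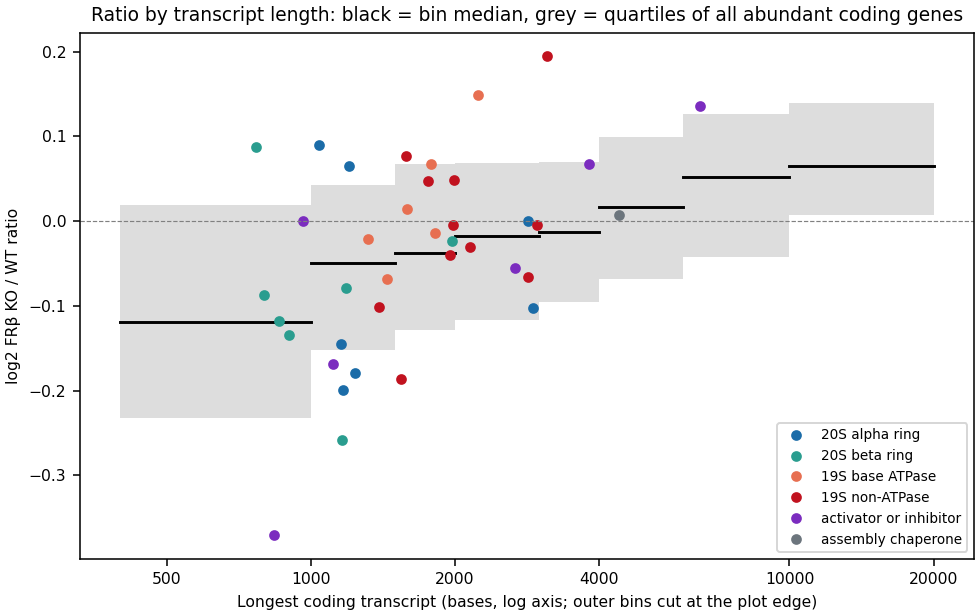
Log2 KO/WT ratio against the length of the longest coding transcript in bases (log axis) for the 38 proteasome genes with at least 1000 counts, coloured by class. Black lines are the medians and grey bands the quartiles of all abundant protein-coding genes in each length bin, and the medians step up from -0.12 in the shortest bin to 0.07 in the longest.

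The activators dock on the core in place of the cap. PA28, the product of *Psme1* and *Psme2*, is known to be induced by IFNγ. *Psme1* had 3549 counts in FRβ KO against 3719 in WT, a ratio of 0.890 (0.849 to 0.932). *Psme2* had 3268 against 3046, a ratio of 1.00 (0.952 to 1.05). Taken directly, the ratio of *Psme1* to *Psme2* counts in FRβ KO was 0.889 times that in WT (0.831 to 0.952). With the counts of *Psme2b* added to those of *Psme2*, a step chosen after seeing the data, it was 0.963 times (0.905 to 1.02), and the interval held 1.

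*Psme2b* had the lowest ratio of all members, with 1281 counts in FRβ KO against 1544 in WT and 0.773 (0.718 to 0.8335), the interval that came nearest to lying wholly beyond 1.2-fold. The near-identical sequences shown above leave the split of reads between *Psme2* and *Psme2b* uncertain, and the sources used here do not state how reads that fit both were counted. Their summed counts were 4549 in FRβ KO and 4590 in WT, a ratio of 0.924 (0.887 to 0.963), which is above the value of *Psme2b* alone and below that of *Psme2* alone.

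*Psme3*, encoding the nuclear PA28γ, had 2019 counts in FRβ KO and 1955 in WT, a ratio of 0.963 (0.904 to 1.03). *Psme4*, encoding PA200, had 3105 against 2635, a ratio of 1.10 (1.04 to 1.16), and is the longest of the 47 genes by its coding transcript, at 6491 bases. The genes in its length bin had a median log2 ratio of 0.05, and that of *Psme4* was 0.14. The *Psme4* to *Psme3* ratio of counts in FRβ KO was 1.14 times that in WT (1.05 to 1.24). *Psmf1*, encoding the inhibitor PI31, had 1135 and 1010 counts in FRβ KO and WT, with a ratio of 1.05 (0.962 to 1.14).

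The 3 catalytic members have inducible counterparts, *Psmb8* for *Psmb5*, *Psmb9* for *Psmb6* and *Psmb10* for *Psmb7*. The inducible genes had 2997, 3244 and 2803 counts in FRβ KO, in that order, and 3074, 3313 and 2929 in WT. Relative to its counterpart, the change between libraries was 0.997 (0.916 to 1.09) for *Psmb8*, 0.970 (0.895 to 1.05) for *Psmb9* and 1.07 (0.94996 to 1.199) for *Psmb10*. For the summed counts it was 0.993 (0.943 to 1.05), so neither a shift towards the inducible nor one towards the constitutive forms was detectable at this depth.

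The level of each inducible gene relative to its counterpart depended on the length used, and only *Psmb10* was clearly above its counterpart by both lengths. Per length of the union of exons, *Psmb10* stood 8.10 times above *Psmb7* in FRβ KO and 7.59 times in WT. Per length of the longest coding transcript it was 3.57 in FRβ KO and 3.35 in WT. The part of the overlap of *Psmb7* with *Nek6*, described above, in these levels was not tested. *Psmb8* stood at 0.484 of *Psmb5* in FRβ KO and 0.485 in WT by the union of exons, and at 1.00 and 1.01 by the longest transcript. *Psmb9* stood at 0.840 of *Psmb6* in FRβ KO and 0.866 in WT by the union of exons, and at 0.969 and 1.00 by the longest transcript.

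**Figure D3:**
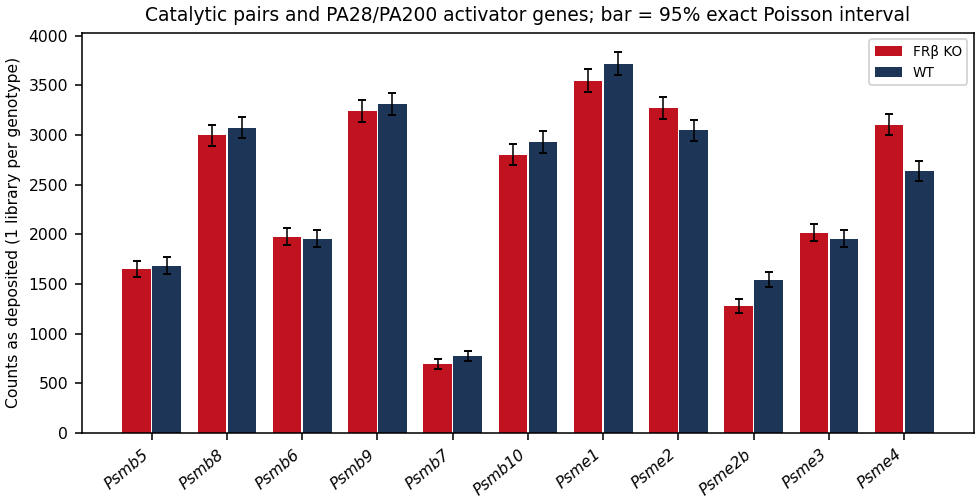
Counts as deposited for the catalytic genes, each constitutive gene beside its inducible counterpart, and for the activator genes, with FRβ KO to the left of WT and 1 library each. Error bars are exact 95% Poisson intervals for counting error only. Without scaling, the bars of *Psmb5* and *Psmb6* nearly match, while *Psme4* is higher in FRβ KO (3105 against 2635) and *Psme2b* lower (1281 against 1544).

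The assembly chaperones bring the rings and the base together before the particle is complete. *Psmg1*, *Psmg2*, *Psmg3* and *Psmg4* act on the core, and *Psmd5*, *Psmd9* and *Psmd10* on the base of the cap. All 7 intervals held 1. *Psmg4* had the highest ratio of the class, with 147 counts in FRβ KO against 115 in WT and 1.19 (0.927 to 1.53), and *Psmd9* the lowest, with 396 against 387 and 0.954 (0.827 to 1.10). The class summed to 2521 counts in FRβ KO and 2323 in WT, a ratio of 1.01 (0.956 to 1.07). *Psmc3ip* had 7 counts in FRβ KO and 8 in WT.

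Levels within a library were compared per length, in TPM, the count per base of the union of exons scaled to a fixed library total. The 14 standard genes of the core spanned 9.03-fold in FRβ KO and 8.28-fold in WT, with *Psmb5* the highest (296 TPM in FRβ KO and 317 in WT) and *Psmb7* the lowest (32.8 and 38.3). With the longest coding transcript as the length, the span was 4.18-fold and 4.44-fold in FRβ KO and WT, *Psmb6* was the highest and *Psma3* the lowest. This level of *Psma3*, and so the span, leaves out the counts of its copy *Gm13835* (887 in FRβ KO and 898 in WT). *Psma2* (74.7 and 78.2 TPM) and *Psmb7* (71.6 and 83.6) lay close above it. The overlap with *Nek6* limits the *Psmb7* level by either length. *Psma8* stood at 2.40 TPM in FRβ KO and 1.63 in WT, far under the standard α genes by either length.

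*Psmd8* was the highest gene of the cap by either length, at 319 TPM in FRβ KO and 312 in WT by the union of exons, and *Psmd2* the next, at 222 and 217. The median was 90.3 TPM in FRβ KO and 90.7 in WT for the ATPases, and 69.3 and 66.8 for the other cap subunits. The chaperones were lower, with medians of 16.2 TPM in FRβ KO and 16.0 in WT. *Psme1* stood at 260.0 and 285 TPM and *Psme2* at 299.8 and 292 in FRβ KO and WT, near *Psmb5*, the highest standard core gene by this length. By the longest coding transcript they stood at 382 and 419 TPM (*Psme1*) and 407 and 397 (*Psme2*). Both were then above *Psmb6* (296 and 307), the highest standard core gene by that length. The *Psme2* levels leave out the counts assigned to *Psme2b*. *Psme4* was at 59.9 TPM in FRβ KO and 53.2 in WT, and *Psmf1* at 28.5 and 26.6.

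**Figure D4:**
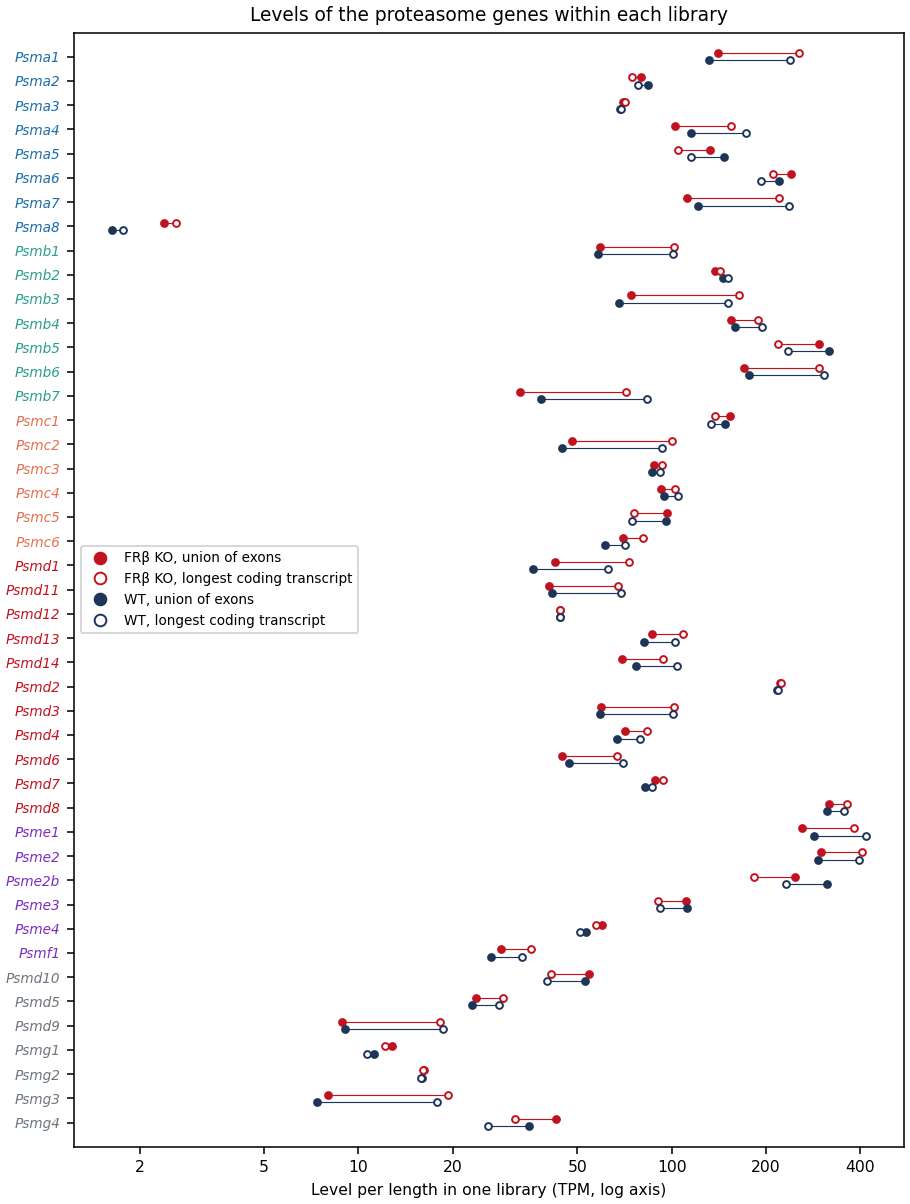
Levels per length of the same 45 genes within each library, in TPM on a log axis, for FRβ KO (red, upper of each pair) and WT (blue, lower). Filled points use the union of exons and open points the longest coding transcript, and for many genes, such as *Psmb7* and *Psmd9*, the distance between these is wider than that between the libraries.

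Processed copies of the subunit genes touch some of these counts. *Psma3* has a copy, *Gm13835*, identical over 685 bases, which had 887 counts in FRβ KO and 898 in WT. Added to the 1686 counts of *Psma3* in FRβ KO and its 1571 in WT, it gave a ratio of 0.972 (0.919 to 1.03), against 1.00 without it. Near-identical copies also lie elsewhere for *Psma4* and *Psma5*, and with their counts added the ratios were 0.887 and 0.878, both still wholly below 1. In the β ring, *Psmb5* with its copy stood at 0.906 (0.847 to 0.969) and *Psmb3* with its copies at 1.05 (0.959 to 1.14). In the cap, *Psmc1*, *Psmd2* and *Psmd11* have copies of at least 500 bases with counts, and with these added their intervals held 1.

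Of the proteasome genes, 4 lie on chromosome 7 with *Folr2*. *Psma1* is the nearest, 12.4 Mb away, followed by *Psmd13* at 39.0 Mb, *Psmd8* at 72.7 Mb and *Psmc4* at 73.8 Mb. Their ratios were 1.05, 1.03, 0.997 and 0.954, and all 4 intervals held 1.

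Partners of the proteasome were read from a list of 27 genes chosen by role, covering ubiquitin genes, shuttle receptors, deubiquitinases, p97 and its cofactors, and regulators of NRF1. The whole interval lay above 1 for 1 of them and below 1 for 7, and 0 lay beyond 1.2-fold. Of the 27, 26 had at least 1000 counts, and 7 of 27 is near the 23.8% of such genes that lay below 1. Of all genes with that many counts, 21.3% lay above 1. Beyond 1.2-fold, 1.52% were higher and 2.31% lower in FRβ KO. The median log2 ratio was -0.03. *Rps27a*, which encodes ubiquitin fused to a ribosomal protein, had 654 counts in FRβ KO against 748 in WT and a ratio of 0.815 (0.733 to 0.907). *Sem1*, a small subunit of the cap outside the naming rule, had 626 counts in FRβ KO against 733 in WT and a ratio of 0.796 (0.714 to 0.887).

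*Pomp*, which encodes the maturation factor of the core, had 2464 counts in FRβ KO against 2724 in WT and a ratio of 0.843 (0.798 to 0.891). *Nfe2l1* had 4876 against 5079 and a ratio of 0.895 (0.860 to 0.931). These 2 were named after their values were seen. *Ddi2*, the protease that activates NRF1, stood at 0.981 and *Ngly1*, the deglycosylase that acts on it, at 0.909, both with 1 in the interval. The polyubiquitin gene *Ubb* stood at 0.902 (0.880 to 0.925). The highest of the list were the shuttle receptor *Ubqln2* at 1.10 (0.987 to 1.22) and *Zfand5*, which binds the proteasome, at 1.07 (1.02 to 1.13).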

How the data were processed

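Total RNA of M1-like BMDMs was pooled per genotype and sequenced as paired ends. The authors deposited unnormalized counts for each gene, which their sequencing provider made after HISAT2 alignment to mm10. The submitters' processing notes also name edgeR. The sources used here do not state the counting program, annotation release or strand setting. The file was matched by Ensembl identifier to GENCODE M21, which lacked 123 of 54532.

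TMM scaling (edgeR 4.0.16, R 4.3.3) set the FRβ KO library at 1.07 times the WT library. Each KO/WT ratio has a Clopper-Pearson 95% interval (scipy 1.17.1, Python 3.11.15). Its computation was checked on simulated counts with counting error alone. That check cannot speak to variation between mice or libraries, which the simulation left out. Changes in the ratio of a gene pair have conditional exact intervals. Each genotype has 1 pooled library, so intervals and floors cover counting error only, and not variation between mice. The study's methods name no molecular identifiers, and the part of duplicate reads in the counts was not tested. Log2 ratios used a prior count of 2. Copies were sought with blastn 2.17.0 (at least 95% identity over 150 bases). A long copy means at least 500 bases elsewhere in the genome, chosen after seeing the data.

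Values in full were given for *Psmb5* to *Psmb7*, *Psme1* to *Psme4*, members wholly beyond 1.2-fold, and the highest and lowest ratio per class with at least 50 counts, and for the 2 highest and 2 lowest partners. Other genes named were chosen by role or after their values were seen. Members and lists were chosen with earlier results of these data known. Some genes of the partner list are not reported here and were left out of its counts. Alternatives were DESeq2 1.42.0 size factors, upper-quartile or total-count scaling, 99% intervals, a minimum of 1 or 50 counts, a prior count of 0.125 or 5, copies added, *Psmc3ip* left out, another gene length, and division by the median of genes of like length.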

Additional observations from a re-analysis of the deposited data

How the results depend on the processing

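No paired analysis was possible because each genotype has 1 library and the results come from no test across mice. Several alternatives left the counts of genes by call, their median and the class sums close to the values above. These were scaling by upper quartile or DESeq2 size factors, 99% intervals, other filters, other prior counts, copies added and *Psmc3ip* left out. With DESeq2 size factors, however, the interval of the summed ratio of all 47 genes held 1, which it did not with TMM. With all copies of at least 95% identity over 150 bases added, the sum of the non-ATPase subunits lay wholly above 1. With long copies alone added, the interval of that sum held 1. With scaling by total counts, 5 genes had intervals wholly above 1, the median log2 ratio was 0.0209, the summed ratio turned to 1.01, and *Psmb5* was no longer wholly below 1. The sums of the α ring, 0.987 (0.963 to 1.01), and the activators, 0.987 (0.964 to 1.01), then held 1, and those of the non-ATPase subunits, 1.03 (1.01 to 1.04), and the ATPases, 1.04 (1.01 to 1.08), lay wholly above it. After division by the median of genes of like length, a step added after seeing the data, 8 genes lay above 1 and 7 below, and the median was 0.0207. No share of all genes was computed after this division to set beside these counts. *Psmb5* then stood at 0.989, *Psmb6* at 1.02, *Psme2* at 1.09 and *Psme2b* at 0.840. The class sums were not recomputed this way. With each other's counts added, *Psme2* and *Psme2b* both stood at 0.924, and the change in *Psme1* over both was 0.963. By the longest coding transcript, the span of the standard core genes was 4.18-fold in FRβ KO and 4.44-fold in WT, and *Psmb8*, *Psmb9* and *Psmb10* stood at 1.00, 0.969 and 3.57 times their counterparts in FRβ KO and at 1.01, 1.00 and 3.35 times in WT. Counting error alone left the interval of *Psma8*, with 61 counts in all, at 0.837 to 2.51.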
